A study of Mus musculus with 4 samples.

Results

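The CLK and SRPK kinases were examined as the gene symbols Clk1, Clk2, Clk3, Clk4, Srpk1 and Srpk2, taken by name and not by their measured values. They are 6 of the 22730 symbols in the expression tables and account for 9 of the 28283 transcript entries there. In the junction tables they hold 539 of 1921627 exon-exon junctions, of which 79 are known and 460 putative. All 79 known junctions and 26 of the putative ones had a read in at least 1 library.

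Thymocytes are the developing T cells of the thymus, and RNA of total thymocytes was sequenced from 2 mice labelled wild type and 2 mice labelled hnRNP L KO, with 1 library per mouse. hnRNP L is an RNA-binding protein that regulates pre-mRNA splicing and favours CA-rich RNA. Both genotypes carry the same mixed background in the labels, which joins CD45.1, the allele Gt(ROSA)26Sortm4(ACTB-tdTomato,-EGFP)Luo, C57BL/6 and an LckCre transgene. The Lck promoter drives Cre in T-lineage cells; the Hnrnpl allele, the Cre status of each mouse, and the ages were not given in the sources used here.

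SR proteins are splicing factors whose arginine-serine repeats must be phosphorylated and dephosphorylated in turn. SRPK kinases sit mostly in the cytoplasm and phosphorylate these repeats so that the proteins enter the nucleus. CLK kinases are dual-specificity enzymes of the nucleus that phosphorylate the repeats further, which releases SR proteins from nuclear speckles. CLK genes also regulate their own splicing: skipping of exon 4, or retention of the introns beside it, gives transcripts without a full kinase domain.

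Reads assigned to 1 transcript per gene ranged from 27548708 to 51544714 per library, and junction reads from 3302915 to 6146421. Hnrnpl stood at 156 and 158 RPKM (read density per transcript length, scaled to the mapped reads) in the wild types, at 87.2 in KO replicate 1 and at 39.9 in KO replicate 2. The KO libraries thus held 55.6% and 25.5% of the wild-type mean. Ddx3y, a Y-linked gene, had 4116 reads in KO replicate 1, and Xist had 222 there, whereas the other 3 libraries had at most 17 and at least 57852, so the sex of the mice differed within the KO group. All 12 thymocyte markers had reads in every library, with summed levels of 2576 and 2749 RPKM in wild type, against 2755 and 2341 in KO. Of the 12, edgeR and limma-voom called none, with 2 at an unadjusted p under 0.05 in edgeR, and DESeq2 called 2 higher in KO, Cd3e (log2 0.96, adjusted p = 0.0177) and Rag2 (0.64, adjusted p = 0.00192). The 4 erythroid markers found, of 6 listed, summed to 41.4 and 37.0 RPKM in the wild types, 128 in KO replicate 1 and 25.4 in KO replicate 2. Markers of B cells (10.1 to 11.0 RPKM), myeloid cells (35.5 to 39.0) and stroma (5.82 to 12.9) were low, and no marker found was at 0. Higher in KO by edgeR were 6 of 6 myeloid, 6 of 8 stromal, 3 of 4 erythroid and 1 of 6 B cell markers. Of all 13733 genes tested, 7022 were. None of these markers was called. In edgeR, 2 myeloid markers and 1 stromal marker had an unadjusted p under 0.05, as did 9.9% of all genes tested.

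The sequences of the exons on which the splicing results turn are shown first, because the exons are of unlike length but share a core. Each was read from the GENCODE M21 transcripts of GRCm38 and matched to the mm9 junctions by exon length and the lengths of both flanking introns. In the exon 4 sequences of the 4 CLK genes, written 5′ to 3′, the capitals mark GAGGGNCACCT, the longest stretch common to all 4 when 1 position, N, may vary.
Clk1 exon 4: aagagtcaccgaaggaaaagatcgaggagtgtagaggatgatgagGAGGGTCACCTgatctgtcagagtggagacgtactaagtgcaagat
Clk2 exon 4: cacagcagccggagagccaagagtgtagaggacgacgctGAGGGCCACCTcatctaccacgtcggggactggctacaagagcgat
Clk3 exon 4: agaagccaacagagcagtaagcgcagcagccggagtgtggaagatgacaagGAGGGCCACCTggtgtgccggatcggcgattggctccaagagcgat
Clk4 exon 4: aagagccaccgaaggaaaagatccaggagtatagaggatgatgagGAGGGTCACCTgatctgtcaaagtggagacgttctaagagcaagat

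The exons are 91 nt long in Clk1 (chr1:58476965-58477055, minus strand), 85 nt in Clk2 (chr3:88973540-88973624, plus strand), 97 nt in Clk3 (chr9:57606434-57606530, minus strand) and 91 nt in Clk4 (chr11:51086580-51086670, plus strand), all in mm9. Each is exon 4 of a 13-exon transcript and lies wholly in the coding sequence. None of these lengths is a multiple of 3, so leaving the exon out shifts the reading frame. Computed from the transcripts, the open reading frame shortens from 483 to 135 codons in Clk1, from 499 to 136 in Clk2, from 638 to 300 in Clk3 and from 481 to 134 in Clk4. The stop codon of the skipped form then lies 740 to 818 nt before the last exon junction. Clk1 and Clk4 are the closest pair, with 85 of 91 bases identical (93.4%), whereas the other pairs are 63.0% to 66.7% identical over their alignments. This stretch was taken from the 4 exons themselves, so its presence in them is no finding. Searched on the transcript strand only, it occurred in 9 of 14232 coding internal exons of 85 to 97 nt (0.0632%), the 4 CLK exons among them. The CA-rich word ACACA, searched the same way, was in none of the 4 and in 9.61% of those 14232 exons. At that share, absence from 4 exons is not unusual. The flanking introns were not searched.

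Srpk1 and Srpk2 share a small exon, shown because both genes had at least 1 read that skipped it. In wild-type replicates 1 and 2 and KO replicates 1 and 2, skipping reads numbered 1, 3, 0 and 1 in Srpk1. In Srpk2 they numbered 0, 1, 0 and 0, and its exon did not enter the exon test below. The capitals mark the longest run of bases common to both sequences.
Srpk1 exon 9: tcagcactGCTCCACAGCctaagcca
Srpk2 exon 8: tgagtacgGCTCCACAGCaaaaacct

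Both are 26 nt long, in Srpk1 at chr17:28737814-28737839 and in Srpk2 at chr5:23032608-23032633, both on the minus strand. They match at 19 of 26 positions (73.1%), with a common run of 10 nt. Without the exon the reading frame ends after 251 codons instead of 648 in Srpk1, and after 254 instead of 682 in Srpk2.

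All 6 kinases passed the filter on low counts, and none passed the test for a difference in transcript level between KO and wild type. The lowest adjusted p among them was 0.50, for Clk3, in edgeR's quasi-likelihood test with Benjamini-Hochberg adjustment over 13733 genes. Of all genes tested, 0.00728% were called, and 9.9% had an unadjusted p under 0.05, as did 1 of the 6 kinases. The 1 gene called was higher in KO. Hnrnpl, at 55.6% and 25.5% of the wild-type mean in the KO libraries, was thus not called lower by this test. The absence of a call therefore does not show that a kinase was unchanged. DESeq2, which called 0.823% of all genes, and limma-voom, which called 0%, also called none of the 6. The median log2 difference of the 6 was -0.07, beside 0.01 for all genes tested. Positive values numbered 2 of the 6, beside 7022 of all 13733 genes tested.

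**Figure D1:**
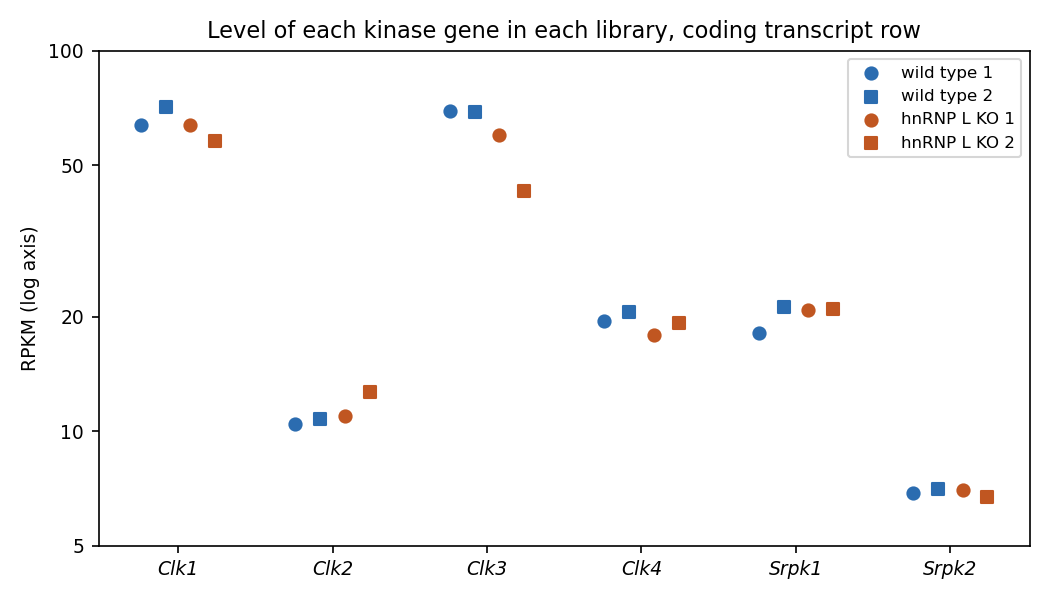
Level of each kinase gene (x axis) in RPKM of its coding transcript entry (y axis, log scale), with 1 point per library, wild type in blue and KO in orange. Clk1 and Clk3 lie highest and Srpk2 lowest in both genotypes, and Clk3 of KO replicate 2 lies at 42.7 RPKM, below the other 3 libraries.

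For Clk1 the RPKM is that of the coding entry, NM_001042634, whereas its counts below are those of the longest entry, NR_027854. Levels per length differed by 9.92-fold between the highest and lowest kinase in the wild types. Clk3 had 69.1 ± 0.243 RPKM and Clk1 67.5 ± 5.13 (SD, n = 2), and these 2 did not separate. Clk4 (20.02 ± 0.840) and Srpk1 (19.7 ± 2.16) overlapped as well. Clk2 followed with 10.6 ± 0.245 and Srpk2 with 6.97 ± 0.112 RPKM, each below its neighbour in both libraries. In the KO, the ranges of Clk1 (60.9 ± 4.13 RPKM) and Clk3 (51.4 ± 12.3) overlapped, although Clk1 lay above Clk3 within each library (63.8 over 60.0 and 57.9 over 42.7), and every lower step separated. Srpk3, the muscle-enriched paralog, had 7 to 17 reads per library and did not pass the filter on low counts.

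Clk3 (NM_007713, chr9:57598518-57613667, minus strand) encodes a nuclear CLK kinase. Its CPM (TMM-scaled counts per 1000000 reads) were 443 and 413 in wild-type replicates 1 and 2, 374 in KO replicate 1 and 259.6 in KO replicate 2. Both KO libraries lay below both wild types, and KO replicate 2 lay far below the other KO library. The KO libraries held 87.4% and 60.6% of the wild-type mean. The log2 difference was -0.43 ± 0.18 (SE), which is a fold of 0.740 with a 95% interval of 0.551 to 0.995; edgeR's unadjusted p was 0.0468. Junction reads gave a ratio of 0.807, from 494 and 474 per 1000000 junction reads in the wild types to 456 and 326 in the KO.

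The Clk3 difference rested on KO replicate 2. Without KO replicate 1 it was -0.73 and passed edgeR's threshold (adjusted p = 0.0318), in a fit that called 427 of 14440 genes, or 2.96%. Without KO replicate 2 it was -0.19 (adjusted p = 0.722). KO replicate 2 also had the lowest summed thymocyte markers and the highest summed stromal markers of the 4 libraries. Its Hnrnpl RNA was lower than that of KO replicate 1, at 25.5% against 55.6% of the wild-type mean. The KO libraries differed in sex and in erythroid markers as well. The part of these differences in the Clk3 value was not tested. In bulk RNA, fewer cells of a type and less RNA per cell cannot be told apart.

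Clk1 (chr1:58468832-58480932, minus strand) is the CLK family's founding member and is known to regulate the splicing of its own transcript. It had 370.3 and 386 CPM in wild type, against 369.8 and 328 in KO. The KO values lay below the wild-type values, though KO replicate 1 differed from wild-type replicate 1 by less than the wild types differed from each other. The log2 difference was -0.12 ± 0.13 (edgeR adjusted p = 0.744; fold 0.922, interval 0.748 to 1.14). It was -0.03 without KO replicate 2 and -0.21 without KO replicate 1.

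Clk4 (NM_007714, chr11:51076673-51095266, plus strand) is the CLK most like Clk1 in sequence. It had 94.2 and 93.7 CPM in wild type, against 84.6 and 88.5 in KO. The KO libraries lay below both wild types, with a log2 difference of -0.12 ± 0.11 (edgeR adjusted p = 0.694; fold 0.921, interval 0.772 to 1.10).

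Clk2 (NM_007712, chr3:88968727-88981009, plus strand), a nuclear kinase that also acts in insulin signalling in liver, had 61.7 and 59.8 CPM in wild type, against 63.1 and 71.4 in KO. Both KO libraries lay above the wild types, by a log2 difference of 0.15 ± 0.11 (edgeR adjusted p = 0.638; fold 1.11, interval 0.923 to 1.33). The log2 value was 0.06 when KO replicate 2 was left out, and 0.23 without the other KO library. The groups thus overlapped for none of the 4 CLK genes and did not overlap in 4 of the 6 kinases, as in 44.7% of all genes tested.

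Srpk1 (NM_016795, chr17:28726537-28759399, minus strand), the broadly expressed SRPK, had 114 and 125 CPM in wild type, against 127 and 125 in KO. Srpk2 (NM_009274, chr5:23009174-23122389, minus strand), its close paralog, had 114 and 109 CPM in wild type, against 113 and 106 in KO. The groups overlapped for both. The fold was 1.05 for Srpk1 (interval 0.873 to 1.27, edgeR adjusted p = 0.820). For Srpk2 it was 0.980 (interval 0.814 to 1.18, edgeR adjusted p = 0.939). Changes within these intervals were not detectable. The intervals are not adjusted for the number of genes tested, so changes beyond them could also go uncalled. Clk3, at a fold of 0.740, was not called. The log2 value of Srpk1, 0.08, became 0.02 without wild-type replicate 1 and 0.15 without wild-type replicate 2, and Srpk2 changed sign with the library left out.

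**Figure D2:**
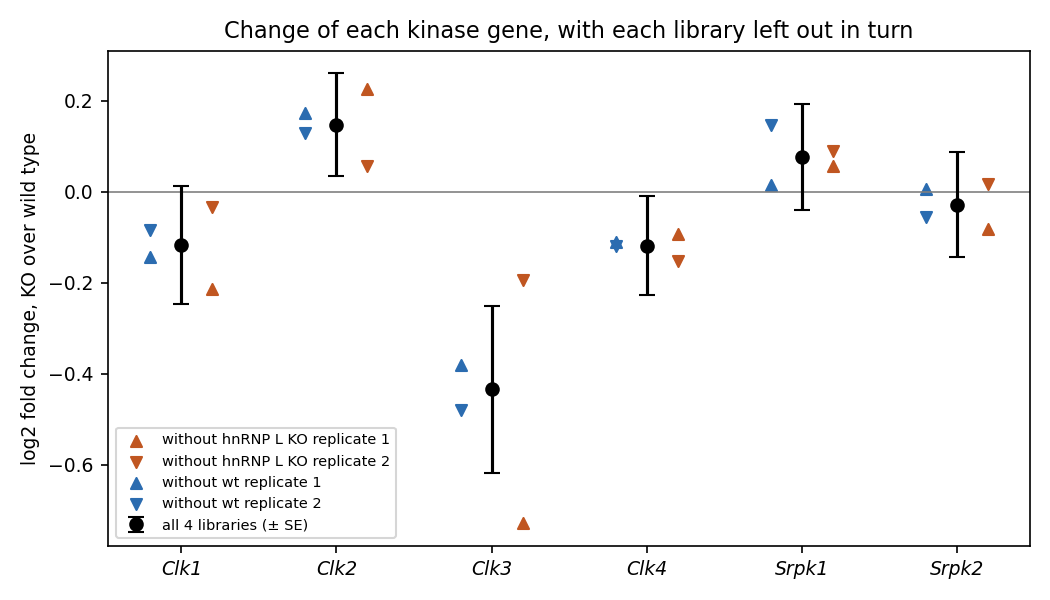
Log2 difference of KO over wild type (y axis) for each kinase gene (x axis), as black points with the standard error over all 4 libraries and as triangles with 1 library left out. The Clk3 value moves from -0.19 without KO replicate 2 to -0.73 without KO replicate 1.

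The genes whose 4-library profile lay nearest to each kinase, by root mean square difference of centred log2 CPM over the 9918 genes with at least 5 CPM, were Zfp276 and Rnf167 for Clk3 and Mrpl33 and Tmco1 for Clk1. For Clk2 they were 2310003H01Rik and Slc16a1, for Clk4 Rpain and Klhl7, for Srpk1 Ccdc123 and Kdm6b, and for Srpk2 Ppm1b and Yy2. Zfp276 had 72.3, 66.8, 61.0 and 41.9 CPM in the same library order, which follows the Clk3 profile to within 0.0065 on the log2 scale. Profiles within 0.1 of Clk3 were found in 275 genes, against 3280 for Srpk2, so close matches were commoner for the flat profile.

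Genes that work with the kinases, taken from 5 lists, gave no call in edgeR; DESeq2 and limma-voom called none either, except for Hspa8 by DESeq2. Of 13 SR proteins, the substrates, 11 had a negative value, with a median of -0.09. Over all 13733 genes tested, 6711 values were negative and 7022 positive, with a median of 0.01. In edgeR, 4 of the 13 had an unadjusted p under 0.05, all lower in KO, where 3.61% of all genes tested were. Srsf10 went from 71.9 and 75.0 CPM in the wild types to 55.4 and 56.3 in the KO (log2 -0.40 ± 0.10, edgeR adjusted p = 0.414), and Tra2a from 218 and 218 to 164 and 174 (-0.37). Srsf9 (-0.31) and Tra2b (-0.28) completed the 4. Among 25 SR-related proteins, 16 were positive with a median of 0.11. Unadjusted p was under 0.05 for Sfrs18 (0.45) and Srrm1 (0.43), both higher in KO, where 6.29% of all genes tested were, and for U2af2 (-0.37) and Ptpn1 (-0.36).

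Of 10 import factors and chaperones, with a median of -0.08, 8 were negative, beside 6711 of all 13733 genes tested. Hspa8, a cytosolic chaperone of the Hsp70 family, had 206 and 232 CPM in wild type, against 141 and 150.1 in KO (log2 -0.59 ± 0.12, edgeR unadjusted p = 0.00154, adjusted p = 0.377), the smallest p in the 5 lists and the only one under 0.05 in this list. DESeq2 put it at -0.60 and called it lower in KO (adjusted p = 0.00643). Tnpo2, Ahsa1 and Ipo7 stood at -0.26, -0.21 and -0.17. Of 11 phosphatases and regulators the median was -0.11 and 1 had an unadjusted p under 0.05, Ppp1r8 at -0.28, beside Ppp1ca at -0.29, Pnn at 0.28 and Ppp1r7 at 0.21. Of 17 further kinases tested of 18 listed, the median was 0.07 and 2 had an unadjusted p under 0.05, Stk38 at 0.30 and Dyrk1b at -0.35, beside Dyrk2 at -0.25 and Hipk3 at -0.24. In these 3 lists, the 1 of 10, 1 of 11 and 2 of 17 genes with an unadjusted p under 0.05 stand beside 9.9% of all genes tested.

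Splicing of the 6 transcripts was measured next. Of 83 junctions of the kinases tested, edgeR's diffSpliceDGE called none, with 1 at an unadjusted p under 0.05, and limma-voom's diffSplice, which called 0.00105% of all junctions, also called none. Over all 95139 junctions, 0.0042% were called and 2.55% had an unadjusted p under 0.05. The 1 junction was putative and joins Srpk1 exon 9 to exon 11, with 4 and 0 reads in wild type, against 6 and 6 in KO (log2 usage 1.38, edgeR unadjusted p = 0.0411, adjusted p = 0.99999). Leaving out wild-type replicate 1 gave 4.02, leaving out wild-type replicate 2 gave 0.66, and limma-voom gave 2.92. In Clk2 the lowest p was at a known junction to the downstream of a pair of exon 3 acceptors, with 2 and 1 reads in wild type and 6 and 3 in KO (log2 usage 1.33, edgeR unadjusted p = 0.0791), and it moved to 0.71 without KO replicate 1. In Clk1 it was at the junction that skips exon 4 (-0.23), and in Srpk2 at the known junction chr5:23031563-23032608, with 6, 26, 16 and 19 reads (0.48). In Clk3 it was at chr9:57598928-57599544 with 153, 155, 133 and 75 reads (0.29), and in Clk4 at chr11:51076771-51080673 with 22, 56, 26 and 36 reads (0.32). With 1 library left out, the Srpk2 junction ranged from 0.15 (without wild-type replicate 1) to 1.20 (without wild-type replicate 2). The Clk3 junction stood at 0.10 without KO replicate 1, and the Clk4 junction changed sign without wild-type replicate 1. None of these 6 junctions passed the threshold. Putative junctions held 207 of the 28512 junction reads of the 6 genes, or 0.726%.

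**Figure D3:**
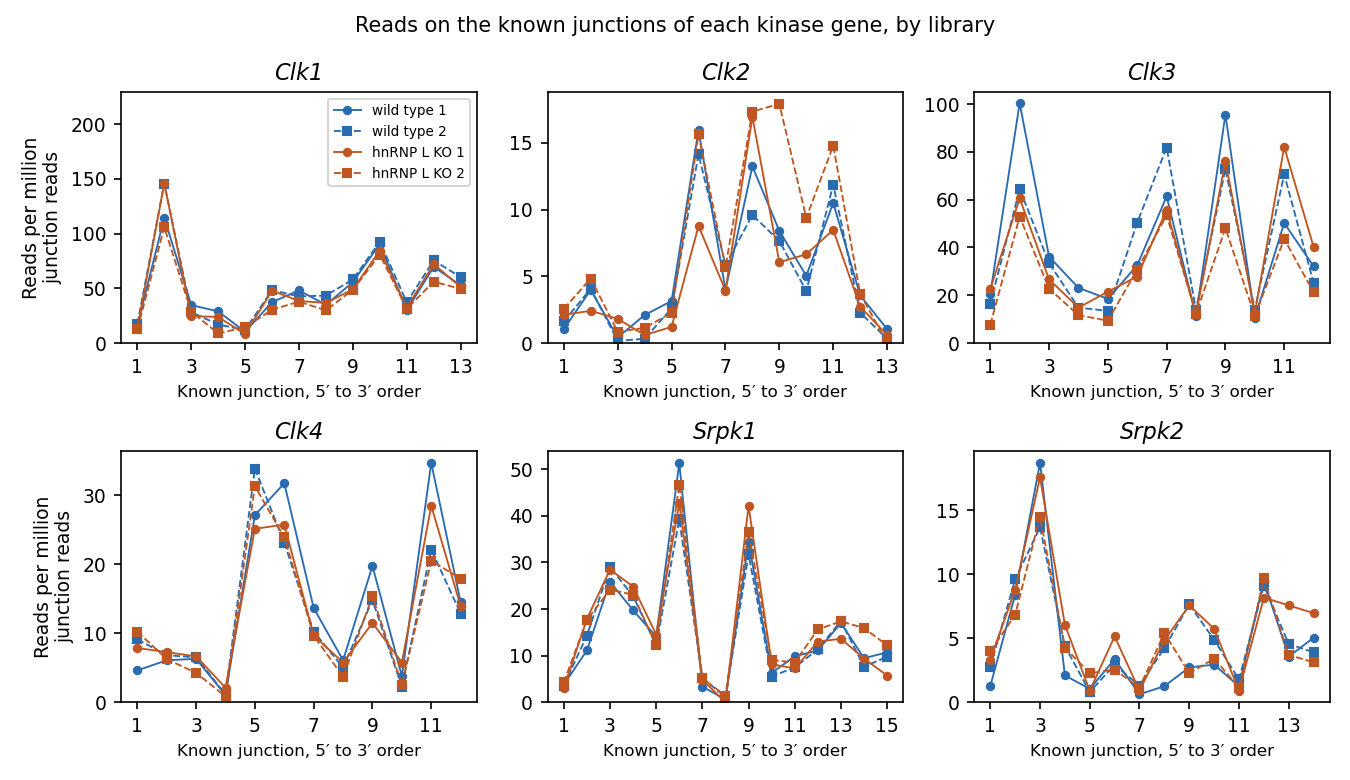
Reads of each known junction (y axis, per 1000000 junction reads) of each kinase gene, numbered from the 5′ end (x axis), with 1 line per library. Summed over all its junctions, putative ones included, Clk3 had 326 reads per 1000000 in KO replicate 2, against 456 to 494 in the other libraries.

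Exon inclusion was computed as the mean reads of the 2 inclusion junctions over that mean plus the reads that skip the exon. Of 6 exons of the kinases that entered the test, none was called and none had an unadjusted p under 0.05, where 0.076% and 5.66% of all 2631 exons were. Wild-type and KO libraries did not overlap for 2 of the 6, Clk4 exon 4 and Srpk1 exon 10, against 36.8% of all exons. The median wild-type inclusion over the 2631 exons was 93.0%, and 11.4% of them lay under 50%. The wild-type means of Clk1 and Clk4 exon 4, 49.0% and 41.4%, were among the latter. By the upstream junction alone, wild-type inclusion was 54.5% and 62.6% in Clk1 and 54.5% and 54.8% in Clk4. By the downstream junction alone it was 26.2% and 41.6% in Clk1 and 16.7% and 17.5% in Clk4.

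Clk1 exon 4 was included at 43.7% and 54.4% in wild type, against 40.6% and 71.0% in KO. The 2 KO libraries lay on either side of both wild types. The means were 49.0 ± 7.57% and 55.8 ± 21.5% (SD, n = 2), a difference of 6.79 points (edgeR adjusted p = 0.971). Without KO replicate 2 the difference was -8.43 points, so its direction rested on that library. The skipping junction is a known one, with 138, 104, 79 and 31 reads. Its upstream inclusion junction had 165, 174, 81 and 101 reads and its downstream one 49, 74, 27 and 51.

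Clk4 exon 4 was included at 41.2% and 41.6% in wild type, against 34.9% and 31.0% in KO, with no overlap. The difference was -8.40 points (edgeR adjusted p = 0.968). Its skipping junction is marked putative but had 25, 33, 27 and 20 reads, more than its downstream inclusion junction with 5, 7, 7 and 3. By the upstream junction alone the values were 54.5%, 54.8%, 44.9% and 42.9%. By the downstream junction alone they were 16.7%, 17.5%, 20.6% and 13.0%, so the KO libraries then lay on both sides of the wild types.

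Clk3 exon 4 was mostly included, at 96.6% and 94.9% in wild type, against 90.7% and 96.8% in KO, with 5, 8, 7 and 2 skipping reads. The difference was -1.97 points (edgeR adjusted p = 0.968), and 1.07 points without KO replicate 1. Clk2 exon 4 had too few reads in KO replicate 1 to enter the test. It was included at 86.2% and 60.0% in wild type, against 33.3% and 60.0% in KO, on 2, 6, 6 and 4 skipping reads. With all libraries pooled, skipping of exon 4 had a share of 49.4% in Clk1, 37.1% in Clk2, 4.99% in Clk3 and 61.9% in Clk4 by these junctions. The Clk2 share rested on 18 skipping reads. The downstream inclusion junction had 0.386, 2.39, 0.533 and 0.206 times the reads of the upstream one in Clk1 to Clk4. The shares thus depend on which inclusion junction is used.

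**Figure D4:**
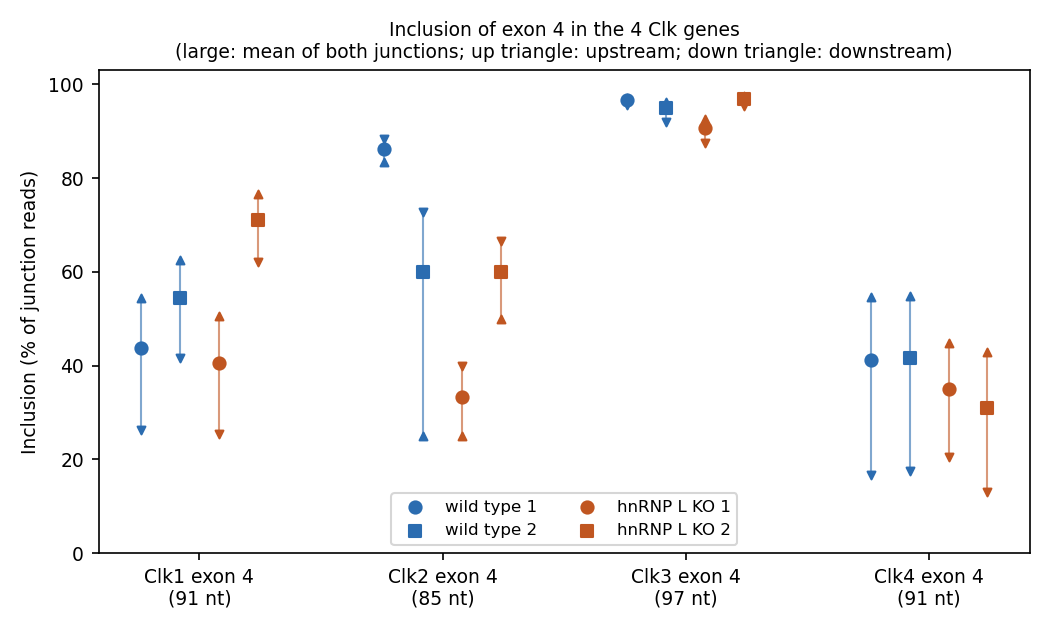
Inclusion of exon 4 (y axis, percent of junction reads) in each CLK gene and library, with large symbols for the mean of both inclusion junctions and triangles for the upstream (pointing up) and downstream (pointing down) junction alone. The large symbols of Clk3 lie at 90.7% or above, and those of Clk1 and Clk4 between 31.0% and 71.0%.

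Other exons were skipped rarely by the mean of both junctions. Clk1 exon 7 was included at 97.5% to 99.2%, and Srpk1 exon 9 at 97.1% to 100%. The Srpk1 exon 9 value rested on its downstream junction, with 164 and 195 reads in wild type and 139 and 128 in KO. Its upstream junction had only 3, 7, 0 and 5 reads, beside 1, 3, 0 and 1 skipping reads. By that junction alone inclusion was 75.0% and 70.0% in wild type, and 83.3% in KO replicate 2. Srpk1 exon 10 (chr17:28737188-28737401, 214 nt) had an inclusion of 96.0% and 100% in wild type, against 93.3% and 93.0% in KO, a difference of -4.88 points (edgeR unadjusted p = 0.098, adjusted p = 0.748). The difference was -2.90 points without wild-type replicate 2, and -3.12 points by the upstream and -11.1 points by the downstream junction alone. Wild-type replicate 2 had 0 skipping reads beside 195 of the upstream junction, which allows a share of up to 1.54%. In Clk2, reads at 2 acceptors of exon 3 that lie 3 nt apart used the downstream one in 2 of 21 and 1 of 26 wild-type reads, against 6 of 14 and 3 of 20 KO reads. The exact Clopper-Pearson 95% intervals were 1.17% to 30.4%, 0.0973% to 19.6%, 17.7% to 71.1% and 3.21% to 37.9%, which cover counting error only. The interval of each wild-type library overlapped that of each KO library.

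The Clk1 entries of the expression tables also allowed the introns beside exon 4 to be measured. The longest entry, NR_027854, exceeds the coding entry, NM_001042634, by 1258 nt, which is the summed length of introns 3 and 4 (871 and 387 nt). The reads found only in the longer entry numbered 2755 and 3746 in wild type, against 2153 and 2137 in KO. Per length, that was 34.4% and 34.1% of the density of the coding entry in wild type, against 38.9% and 38.8% in KO. Retained introns and RNA not yet spliced cannot be told apart in these reads.

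The means were 34.2 ± 0.157% and 38.8 ± 0.00997% (SD, n = 2), 4.60 points apart, which was larger than the spread within either group. The exact two-sided permutation test gave p = 0.333, the smallest that 2 against 2 allows. As a share of reads, introns 3 and 4 made up 19.1% (18.5 to 19.8), 19.0% (18.5 to 19.6), 21.1% (20.3 to 21.9) and 21.1% (20.3 to 21.9), where the intervals cover counting error only. In an edgeR fit over 1732 such pairs of entries, the log2 difference was 0.18 ± 0.13 (edgeR unadjusted p = 0.196, adjusted p = 0.780). That fit called 0% of the pairs, 8.2% had an unadjusted p under 0.05, and 38.9% had groups that did not overlap. Limma and DESeq2 were not run on these pairs.

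**Figure D5:**
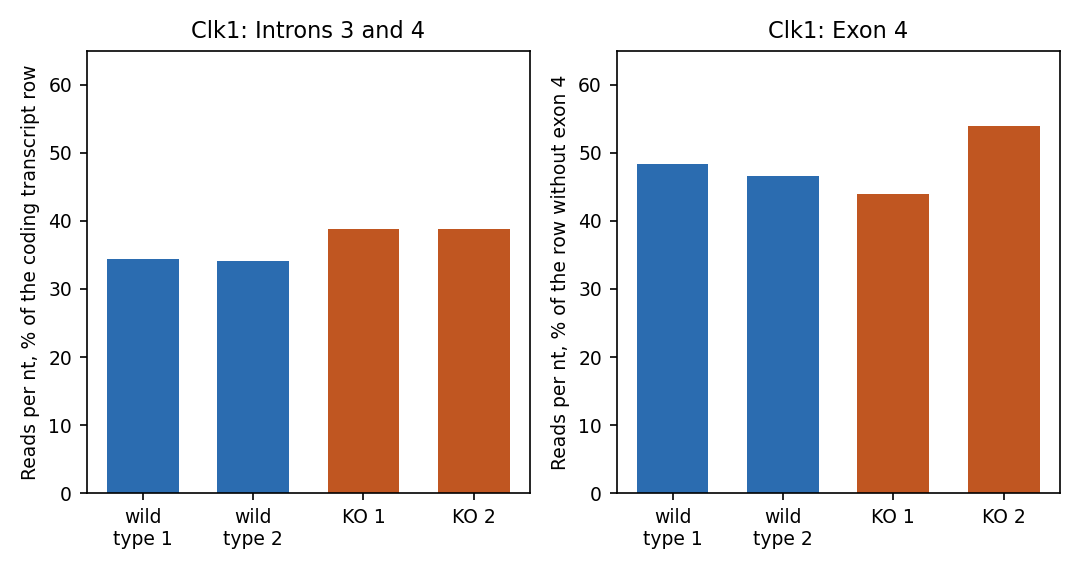
Reads per nt in each library (x axis) for Clk1 introns 3 and 4 as a percent of the coding entry (left y axis) and for exon 4 as a percent of the entry without it (right y axis), with 1 bar per library. The intron bars reach 34.1% to 34.4% in the wild types and 38.8% to 38.9% in the KO, and the exon 4 bars of the KO lie on both sides of the wild types.

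The density of exon 4 itself, from the reads that separate the coding entry from the entry without that exon, was 48.4% and 46.6% of that of the other exons in wild type, against 43.9% and 54.0% in KO. The group means, 47.5 ± 1.26% and 49.0 ± 7.15% (SD, n = 2), differed by less than the spread of the KO libraries (exact permutation p = 1). These densities and the junction reads came from the same libraries, and both placed KO replicate 1 lowest and KO replicate 2 highest for exon 4. The order of wild-type replicates 1 and 2 differed, with 43.7% and 54.4% by junction reads, against 48.4% and 46.6% by density.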

How the data were processed

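Reads of 4 libraries, 2 wild type and 2 hnRNP L KO, were analysed from the tables the authors deposited. The authors gave raw read counts per RefSeq transcript, with the ratio of reads to length and the RPKM, and used a minimum mapping quality of 10, per the file headers. Deposited junction tables hold raw counts of known and putative junctions. The build is mm9, per the submitters' processing notes. The aligner and strand handling were not given in the sources used here, so reads of overlapping antisense genes cannot be told apart. Mapped reads numbered 69061265 to 122619310 per library, per the file headers.

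The transcript with the most reads was kept per symbol. For Clk1 this was NR_027854. Genes were tested with edgeR 4.0.16 (R 4.3.3; TMM, robust quasi-likelihood, Benjamini-Hochberg, threshold 0.05), junctions of at least 10 reads with diffSpliceDGE, and exons by their inclusion and skipping reads, with minimums of 10 in each library and of 5 in all for either kind. The Clk1 intron test used pairs of entries with at least 20 reads per library and was added after the data were seen, with edgeR only. The test code was tested on simulated data and recovered 97.5% of 200 genes changed 2-fold, 94.5% of 200 junctions raised 4-fold and 100% of 200 exons changed from 85% to 50%. The simulated spread between libraries was fixed (dispersion 0.01 for genes, 0.02 for junctions and exons), and only features with many reads were changed. These shares check the code and do not give the power to detect changes in the kinases. DESeq2 1.42.0 and limma 3.58.1 were alternatives. Each mouse is 1 library, so p-values rest on the spread between mice, which edgeR shares over all features tested. Within the KO, that spread includes a difference in sex and in Hnrnpl level. The members and lists were chosen with earlier results of these data known. All 6 kinases are named, with every library's value. Also named are up to 4 genes of each list with the smallest p, the junction with the smallest p in each kinase, every exon tested and the 2 nearest profiles. PCR copies are not independent molecules.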

Additional observations from a re-analysis of the deposited data

How the results depend on the processing

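No kinase passed the gene test under 11 of 12 alternatives. The number called when each library was left out was 0 to 1, the 1 being Clk3 without KO replicate 1 (-0.73). Over all genes, edgeR called 1, against 121 with the replicate block, 62 with no filter on low counts, 3 without small RNA genes, 0 with upper-quartile scaling, 0 without robust moderation, and 2 to 427 with 1 library left out. DESeq2 called 113 and limma-voom 0. The replicate numbers are not said to pair mice. The correlation over genes of the difference between replicates 1 and 2 in the wild types with that in the KO was 0.26. With the replicate block, Clk3 stood at -0.46 (edgeR adjusted p = 0.250), and no kinase was called by gene, junction or exon. Junction calls over all genes numbered 4, against 10 with the block, 2 for known junctions only, 1 by limma-voom and 3 to 10 with 1 library left out. Exon calls numbered 2, against 0 to 1 with 1 library left out and 0 by the downstream junction alone, by 20 reads and by 5 reads.

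Of 173 alternatives to 18 single values, 163 kept their direction and side of the threshold, 9 changed sign and 1 was the Clk3 call. Srpk2 changed sign, to 0.0053 without wild-type replicate 1, to 0.018 without KO replicate 2 and to 0.022 with upper-quartile scaling, which moved the median of all genes to 0.06; with 1 library left out its lowest value was -0.083. With 1 library left out, Clk1 exon 4 ranged from -8.43 (without KO replicate 2) to 22.0 points, Clk1 exon 7 from -0.966 to 0.693 (without KO replicate 2) and Clk3 exon 4 from -5.00 to 1.07 (without KO replicate 1). Usage of the junction that skips Clk1 exon 4 went from -0.23 to 0.12 without wild-type replicate 1 and, when KO replicate 2 was left out, to 0.078, with a lowest value of -0.76. The first junction of Clk4 ranged from -0.018 (without wild-type replicate 1) to 0.79. The cause was not tested. Few reads in KO replicate 1 kept Clk2 exon 4 out of the test. With a minimum of 5 reads it entered, with a difference of -26.4 points on 2, 6, 6 and 4 skipping reads. In that edgeR fit none of the 7 kinase exons was called or had an unadjusted p under 0.05, where 5.32% of all 3029 exons did. By the upstream junction alone, Clk2 inclusion was 83.3% and 25.0% in wild type, against 25.0% and 50.0% in KO.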
